A study of Mus musculus with 8 samples.

Results

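Aldehyde dehydrogenases are enzymes that oxidise aldehydes to carboxylic acids with NAD+ or NADP+ as the electron acceptor. Different members of the family handle acetaldehyde and lipid peroxidation products, retinal, long-chain fatty aldehydes, the semialdehydes that arise when proline and lysine are broken down, or betaine aldehyde from choline. In the heart, mitochondrial ALDH2 is best known for clearing acetaldehyde and 4-hydroxynonenal, and ALDH1A2 for making retinoic acid in the developing atria and epicardium.

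The messenger RNA of 10 aldehyde dehydrogenase genes is described here in mouse atria: Aldh1b1, Aldh2, Aldh4a1, Aldh7a1, Aldh1a1, Aldh1a2, Aldh3a2, Aldh3b1, Aldh3b2 and Aldh3b3. They were taken by symbol from the 54532 genes of the counts table, from a list of 10 aldehyde dehydrogenases that leaves out those of folate and valine metabolism and some further family members, and all 10 were among the 18033 genes that passed the filter on low counts. The 10 genes were chosen by their symbols with the difference in counts between KO and control libraries already known, so their differences between these groups are given as a description, with no test.

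All mice carried 2 floxed alleles of Chd4, the gene of a nucleosome-remodelling ATPase of the NuRD complex, and were injected on postnatal day 2 with an adeno-associated virus of serotype AAV9. KO mice received AAV9:Nppa-Cre (4 libraries) and control mice AAV9:Nppa-EGFP (4 libraries), in each case with the Nppa promoter, which is active in atrial muscle cells, in front of the coding sequence. Right and left atria of mixed cell type were collected, and their RNA was sequenced after oligo-dT selection. How old the mice were at collection, and how many contributed to a library, is not stated in the labels. The p-values therefore reflect only differences among these 8 libraries, which may be technical. Effects of Cre or of EGFP cannot be told apart from those of losing Chd4.

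Total counts were 34002292 to 38228982 in KO libraries and 39804625 to 40588007 in control libraries. Levels below are counts per 1000000 (CPM) scaled with TMM factors, and 3 counts corresponded to 0.0744 to 0.0885 CPM in a library. Chd4 was at 169, 185, 187 and 200 CPM in KO libraries, against 278, 297, 284 and 308 CPM in control libraries (log2 fold change -0.66, SE 0.06, edgeR quasi-likelihood adjusted p = 1.86e-05). Which exons are floxed is not stated in the labels, the tissue is mixed in cell type, and fewer cells of a type and less RNA per cell cannot be told apart in bulk values. Of 8 cardiomyocyte markers, 7 were lower in KO atria, and their summed level was 53380 to 67260 CPM in KO libraries and 82330 to 90050 CPM in control libraries. Of the other marker lists, 5 of 9 endothelial, 1 of 3 endocardial, 4 of 8 macrophage and 3 of 7 smooth muscle and pericyte genes were higher, 1 endothelial and 2 smooth muscle and pericyte genes were lower, and none of 5 neural and 4 adipocyte genes was called. Over all tested genes, 14.8% were called higher and 13.1% lower. The 5 listed adipocyte genes include Lep, which did not pass the filter. These 5 summed to 92.5 CPM in KO 4 and to 0.545 to 4.24 CPM in each other library. The Y-linked gene Ddx3y was at 0.706 to 0.858 CPM in KO 2, control 1 and control 2 and at 105 to 124 CPM in the other libraries, and the library names of controls 1 and 2 carry a different prefix from those of controls 3 and 4.

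Across all tested genes, 27.9% were called at an adjusted p under 0.05, with 14.8% higher and 13.1% lower in KO atria. Of the 10 aldehyde dehydrogenases, 7 were called, 4 higher and 3 lower. KO and control libraries did not overlap for 6 of the 10, against 29.2% of all tested genes. Nothing is read from these counts, because the same contrast chose the genes. The 10 split into 3 genes with large deficits in KO atria (Aldh1b1, Aldh3b2 and Aldh3b3) and 7 whose log2 fold changes lay between 0.08 and 0.61. The median difference of the 8 cardiomyocyte markers was -0.49 on the log2 scale, and their part in the values of the 10 genes was not tested.

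**Figure D1:**
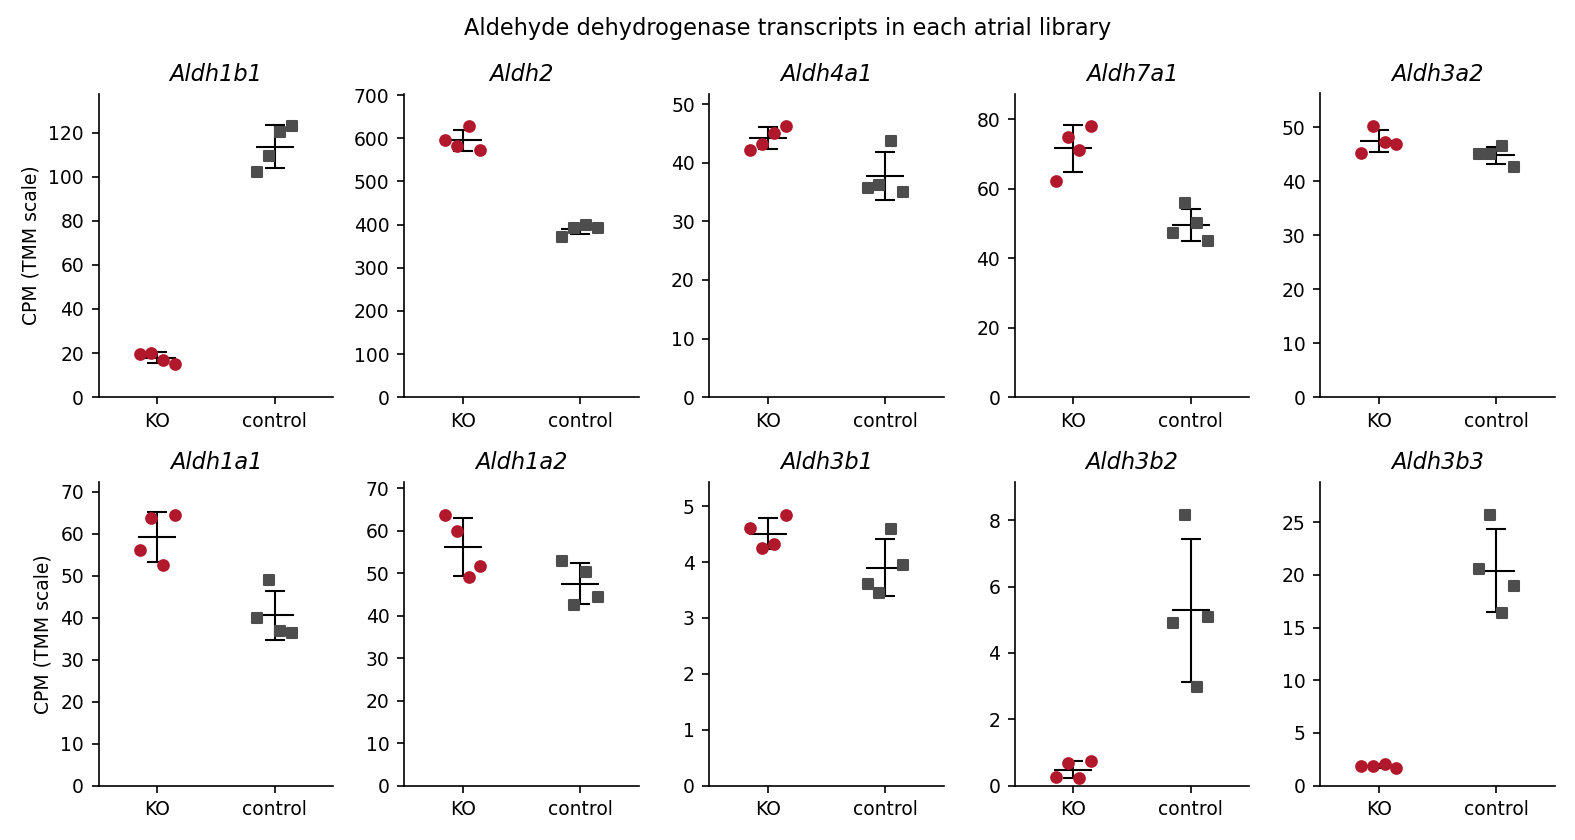
Level of each aldehyde dehydrogenase transcript in CPM on the TMM scale (vertical axes start at 0 and differ between genes), in 4 KO libraries (red circles) and 4 control libraries (grey squares), with the mean and SD of each group in black. Aldh1b1, Aldh3b2 and Aldh3b3 lie far lower in KO libraries, Aldh2, Aldh1a1 and Aldh7a1 lie higher without overlap, and the groups overlap for Aldh1a2, Aldh3a2, Aldh3b1 and Aldh4a1.

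The windows around 3 transcription starts are shown because they hold the promoters of the genes with the largest deficits for which RefSeq (GRCm38.p6) supplied a sequence, and of Aldh3b1, a paralog of Aldh3b3 on the same stretch of chromosome 19 that was not called. Each runs from 250 bases before to 50 bases after the RefSeq start, 5′ to 3′ on the strand of the gene. Capitals mark the letters AGGTGT (T-box factors), AGATAA (a motif of the GATA zinc-finger factors) or AGGTCA (nuclear receptors) on either strand.
Aldh3b3 (chr19:3958558-3958857, + strand): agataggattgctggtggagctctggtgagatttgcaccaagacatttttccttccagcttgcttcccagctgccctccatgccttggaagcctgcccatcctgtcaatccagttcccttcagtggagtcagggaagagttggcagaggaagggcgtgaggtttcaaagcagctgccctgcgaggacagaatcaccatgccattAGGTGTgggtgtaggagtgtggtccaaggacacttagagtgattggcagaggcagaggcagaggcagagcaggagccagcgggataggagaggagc
Aldh3b1 (chr19:3929729-3930028, - strand): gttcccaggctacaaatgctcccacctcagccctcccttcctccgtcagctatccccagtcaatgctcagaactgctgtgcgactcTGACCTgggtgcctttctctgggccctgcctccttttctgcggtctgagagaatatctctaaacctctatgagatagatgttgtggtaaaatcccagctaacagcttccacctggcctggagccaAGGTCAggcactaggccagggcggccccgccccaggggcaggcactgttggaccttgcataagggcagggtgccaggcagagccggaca
Aldh1b1 (chr4:45798772-45799071, + strand): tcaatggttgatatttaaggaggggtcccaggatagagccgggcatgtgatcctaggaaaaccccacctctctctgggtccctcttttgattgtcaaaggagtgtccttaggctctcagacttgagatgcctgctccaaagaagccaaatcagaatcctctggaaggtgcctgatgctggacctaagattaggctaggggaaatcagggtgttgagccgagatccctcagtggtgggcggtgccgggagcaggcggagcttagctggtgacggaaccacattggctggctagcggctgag

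The Aldh3b3 window held AGGTGT once, beginning 46 bases before the start, while the Aldh3b1 window held AGGTCA on both strands, beginning 164 and 39 bases before it. The Aldh1b1 window held none of the 3 motifs. The RefSeq start of Aldh3b3 lies 163 bases from the GENCODE start used for its coordinates below. In all, windows of 7 of the 10 genes were examined, with 2 windows for Aldh1a1. Windows on chromosome 18, which holds Aldh7a1, were left out of the search. The Aldh1a2 window held AGGTGT on the reverse strand 12 bases before the start. The Aldh1a1 windows held AGGTGT 190 bases before the start on the reverse strand and 123 bases before it on the forward strand. The second of them also held AGATAA. The RefSeq starts of these 2 windows lie 132 and 109253 bases from the GENCODE start of Aldh1a1. The Aldh4a1 and Aldh3a2 windows held none. Of 32851 promoter windows of the same length, 13.7% held AGGTGT, 11.2% AGATAA and 16.3% AGGTCA, so single matches of this kind were frequent. The motif matches are a description of letters only.

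Aldh1b1 and Aldh2 encode the mitochondrial enzymes that oxidise acetaldehyde and lipid-derived aldehydes, and their transcripts differed in opposite directions. Aldh1b1 (chr4:45799022-45804604, + strand, GRCm38) was at 19.5, 20.2, 16.8 and 15.1 CPM in KO libraries, against 102, 109, 120 and 123 CPM in control libraries. The highest KO library lay far below the lowest control library. Means were 17.9 ± 2.35 CPM in KO and 114 ± 9.67 CPM in control libraries (SD, n = 4 each), a log2 fold change of -2.67 with a standard error (SE) of 0.10. No other annotated gene shared a window of 50 exon bases with Aldh1b1. Copies outside annotated transcripts were not searched.

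Aldh2 (chr5:121566027-121593824, - strand) was at 597, 582, 628 and 573 CPM in KO libraries, against 372, 393, 400 and 393 CPM in control libraries. The groups did not overlap, and the spread within each was small beside the gap. Means were 595 ± 24.3 CPM in KO and 389 ± 12.1 CPM in control libraries (SD, n = 4 each), 1.53-fold higher (log2 fold change 0.61, SE 0.06).

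Aldh4a1 encodes the mitochondrial enzyme that completes proline breakdown by oxidising glutamate semialdehyde to glutamate. Aldh4a1 (chr4:139622866-139649690, + strand) was at 42.1, 43.2, 45.2 and 46.3 CPM in KO libraries, against 35.7, 36.2, 43.8 and 35.1 CPM in control libraries. Control 3 stood apart from the other controls and lay inside the KO range. Means were 44.2 ± 1.88 CPM in KO and 37.7 ± 4.08 CPM in control libraries (SD, n = 4 each), with a log2 fold change of 0.23 (SE 0.08). It was called with all libraries but no longer without KO 2 (0.24), KO 3 (0.22), KO 4 (0.21), control 1 (0.20), control 2 (0.21) or control 4 (0.19). Its exons share 32.5% of their bases with Gm21969 on the same strand, which had 5 counts over all KO libraries and 0 in control libraries.

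Aldh7a1 encodes antiquitin, which acts in lysine breakdown and on betaine aldehyde. Aldh7a1 (chr18:56509687-56572951, - strand) was at 62.2, 74.8, 71.2 and 78.0 CPM in KO libraries, against 47.1, 55.7, 50.03 and 45.1 CPM in control libraries. KO 1 was the lowest of its group and still above every control. Means were 71.6 ± 6.80 CPM in KO and 49.5 ± 4.65 CPM in control libraries (SD, n = 4 each), 1.45-fold higher (log2 fold change 0.53, SE 0.08). Its exons overlap those of Phax on the opposite strand, and Phax itself was not called (0.04).

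Aldh1a1 and Aldh1a2 encode cytosolic retinal dehydrogenases, which produce retinoic acid. Aldh1a1 (chr19:20492715-20643465, + strand) was at 56.2, 63.7, 52.5 and 64.6 CPM in KO libraries, against 40.0, 49.0, 36.9 and 36.5 CPM in control libraries. Control 2 came closest to the KO range without entering it. Means were 59.3 ± 5.86 CPM in KO and 40.6 ± 5.82 CPM in control libraries (SD, n = 4 each), 1.46-fold higher (log2 fold change 0.55, SE 0.10).

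Aldh1a2 (chr9:71215789-71296243, + strand) was at 63.8, 59.9, 49.1 and 51.8 CPM in KO libraries, against 52.8, 42.5, 50.3 and 44.4 CPM in control libraries. The groups overlapped, with KO 3 and KO 4 inside the control range. Means were 56.2 ± 6.86 CPM in KO and 47.5 ± 4.87 CPM in control libraries (SD, n = 4 each), and the log2 fold change of 0.24 (SE 0.10, 95% interval 0.03 to 0.45) was not called after adjustment. Without KO 3 it was 0.30 and was called. Markers of epicardial cells, a cell type known for Aldh1a2, stood at 787 to 954 CPM in sum in KO libraries and 573 to 759 CPM in control libraries, with 8 of 10 higher, and fibroblast markers at 11050 to 13330 CPM in KO libraries and 10570 to 11150 CPM in control libraries, with 5 of 9 higher. None of these markers was at 0, and their part in the retinal dehydrogenase values was not tested. Among all tested genes, 14.8% were called higher.

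Aldh3a2 encodes the fatty aldehyde dehydrogenase of the endoplasmic reticulum, whose loss in humans causes Sjögren-Larsson syndrome. Aldh3a2 (chr11:61223417-61267464, - strand) was at 45.2, 50.2, 47.2 and 46.9 CPM in KO libraries, against 45.1, 45.1, 46.5 and 42.6 CPM in control libraries. The groups overlapped, and the log2 fold change of 0.08 (SE 0.06, 95% interval -0.04 to 0.20) was not called.

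Aldh3b1, Aldh3b2 and Aldh3b3 lie within 42.5 kb of each other by their starts on chromosome 19, with Unc93b1 between Aldh3b1 and the other two, and encode paralogous enzymes for medium- and long-chain aldehydes. Aldh3b3 (chr19:3958645-3972103, + strand) was at 1.83, 1.84, 2.07 and 1.71 CPM in KO libraries, against 20.5, 25.7, 16.4 and 19.0 CPM in control libraries. These were 62, 74, 76 and 63 counts in KO libraries and 789, 1020, 641 and 744 counts in control libraries, so that each KO library was close to the others and far below every control. Means were 1.86 ± 0.152 CPM in KO and 20.4 ± 3.95 CPM in control libraries (SD, n = 4 each), 10.9-fold lower (log2 fold change -3.45, SE 0.15).

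Aldh3b2 (chr19:3972328-3981646, + strand) was at 0.266, 0.695, 0.245 and 0.732 CPM in KO libraries, against 4.92, 8.17, 2.96 and 5.07 CPM in control libraries. It rested on few reads, 9, 28, 9 and 27 counts in KO libraries and 189, 324, 116 and 199 counts in control libraries, and the groups did not overlap. Means were 0.484 ± 0.265 CPM in KO and 5.28 ± 2.15 CPM in control libraries (SD, n = 4 each), 10.7-fold lower (log2 fold change -3.42, SE 0.41). Of the 10 genes it varied most among libraries of a group, with coefficients of variation of 54.7% in KO and 40.8% in control libraries.

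Aldh3b1 (chr19:3913491-3929808, - strand), the third gene of the cluster, was at 4.60, 4.24, 4.33 and 4.85 CPM in KO libraries, against 3.62, 3.45, 4.59 and 3.95 CPM in control libraries. Control 3 lay inside the KO range. The log2 fold change of 0.21 (SE 0.14, 95% interval -0.09 to 0.51) was not called.

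The 3 genes resemble each other in sequence, which bears on how reads are divided between them. Of the 50-base windows of Aldh3b2 exons, 23.5% also occur in Aldh3b3, while 11.5% of Aldh3b3 windows occur in Aldh3b2 and 8.17% of Aldh3b1 windows in Aldh3b3. The treatment of reads that match several genes is not stated in the labels, so values of Aldh3b2 in particular are uncertain. Aldh3b2 counts came to 14.5%, 37.8%, 11.8% and 42.9% of Aldh3b3 counts in KO libraries and to 24.0%, 31.8%, 18.1% and 26.8% in control libraries, a ratio that overlapped between the groups.

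**Figure D2:**
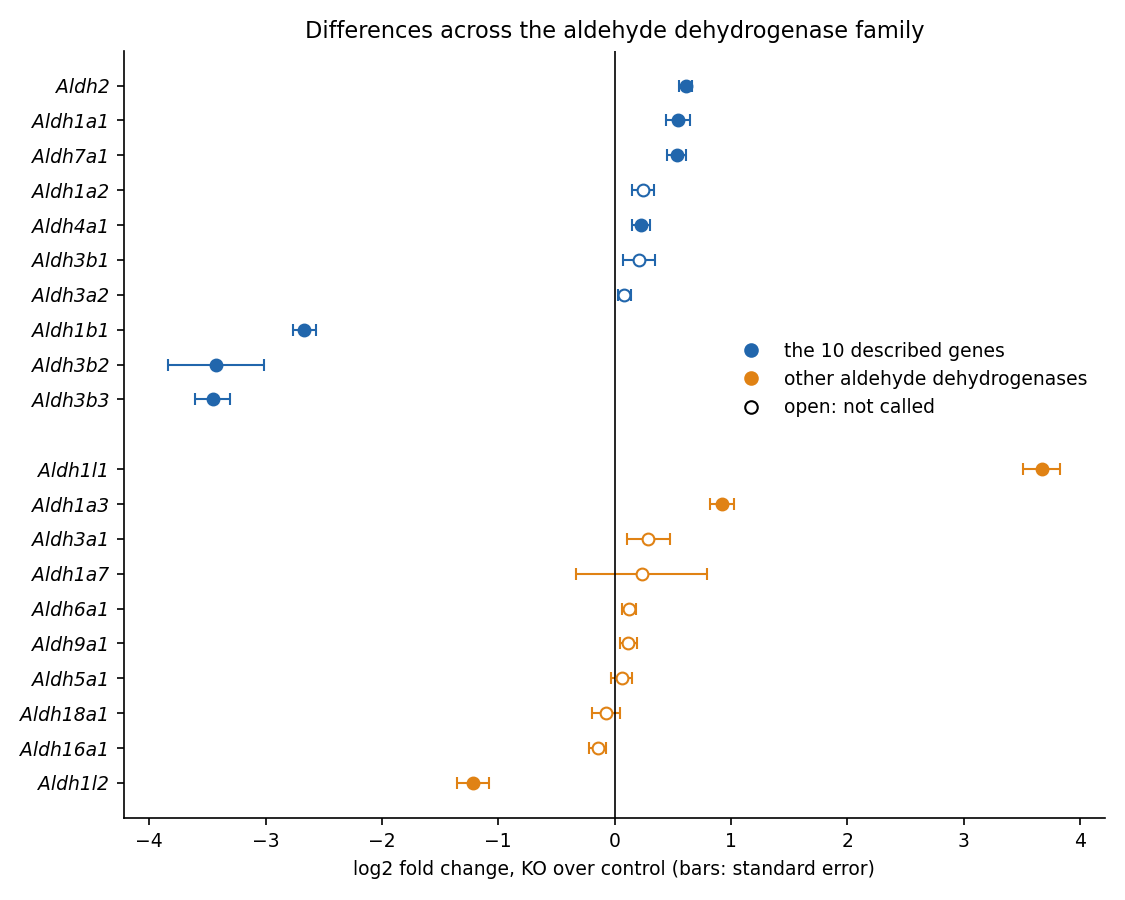
Log2 fold change, KO over control, with its standard error, for the 10 described genes (blue) and the other aldehyde dehydrogenases that passed the filter (orange), where filled points were called at an adjusted p under 0.05 and open points were not. Aldh3b3, Aldh3b2 and Aldh1b1 stand at the low end, between -3.45 and -2.67, and Aldh1l1 of folate metabolism at the high end with 3.67.

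Levels of different genes were compared as CPM per kilobase of exon. Exon bases shared with another gene were kept in the length, 32.5% of them for Aldh4a1. If reads there were dropped in counting, which is not stated, the level per kilobase is understated. In KO atria the order ran from Aldh2 at 116 CPM per kilobase through Aldh1a2 (24.8), Aldh7a1 (13.8), Aldh1a1 (12), Aldh4a1 (9.004), Aldh3a2 (8.44), Aldh1b1 (7.80) and Aldh3b1 (2.20) to Aldh3b3 (0.445) and Aldh3b2 (0.226). In control atria it ran from Aldh2 at 76.0 CPM per kilobase through Aldh1b1 (49.5), Aldh1a2 (20.98), Aldh7a1 (9.55), Aldh1a1 (8.22), Aldh3a2 (7.97), Aldh4a1 (7.68), Aldh3b3 (4.88) and Aldh3b2 (2.46) to Aldh3b1 (1.91). Aldh1b1 thus held rank 7 in KO atria and rank 2 in control atria. Among neighbours in the KO order, the ranges of Aldh7a1 and Aldh1a1, of Aldh4a1 and Aldh3a2, and of Aldh3a2 and Aldh1b1 overlapped, as did those of Aldh4a1 and Aldh1b1, so rank 7 of Aldh1b1 does not differ beyond the spread from ranks 5 and 6. Among neighbours in the control order, the ranges of Aldh7a1 and Aldh1a1, of Aldh1a1 and Aldh3a2, of Aldh3a2 and Aldh4a1, and of Aldh3b2 and Aldh3b1 overlapped, so those positions do not differ beyond the spread of the libraries. With the length of the longest transcript in place of all exons, Aldh1a1 stood at 17.2 CPM per kilobase and Aldh3a2 at 14.5 in control atria, both above Aldh7a1 at 11.98. On that scale, Aldh1a1 in KO atria stood at 25.1, beside Aldh1a2 at 24.8 with overlapping ranges. There Aldh3a2 at 15.3 stood above Aldh4a1 at 10.7. The ranges of Aldh1b1 (6.59 to 8.78) and Aldh4a1 (10.2 to 11.2) in KO atria then no longer overlapped.

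The sum over the 10 transcripts was 195 ± 3.09 CPM per kilobase in KO libraries and 189 ± 5.27 in control libraries (SD, n = 4 each), with overlapping ranges of 190 to 197 and 182 to 194. Aldh2 made up 59.6% ± 2.03 of that sum in KO libraries and 40.2% ± 0.23 in control libraries, while Aldh1b1 made up 4.00% of it in KO and 26.2% in control libraries. Summed as CPM without division by length, the 10 stood at 882.5 to 916.9 CPM in KO and 724 to 771.6 CPM in control libraries, without overlap. Whether the total overlapped between the groups thus depended on the length scale, while its make-up differed.

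**Figure D3:**
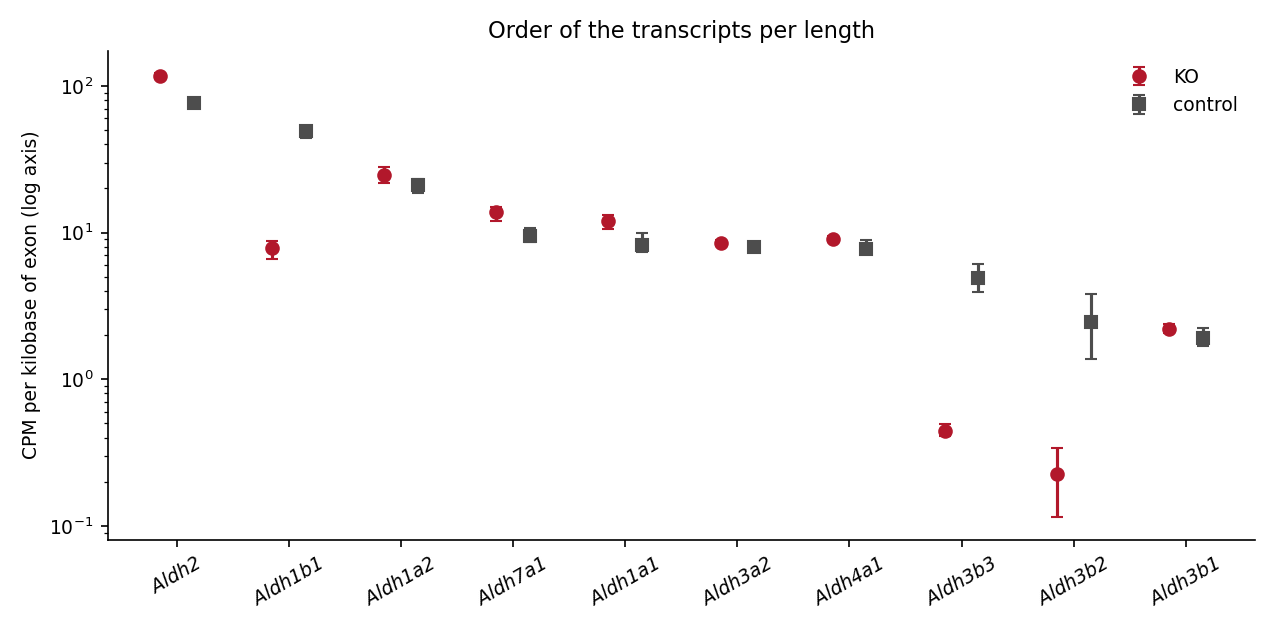
Level of each transcript in CPM per kilobase of exon on a log axis, ordered by the control mean, in KO (red circles) and control libraries (grey squares), with bars from the lowest to the highest library. Aldh2 leads both groups, Aldh1b1 stands at 7.80 in KO and 49.5 in control atria, and Aldh3b3 and Aldh3b2 stand at the bottom of the KO order.

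A comparison within the controls, which the choice of genes did not use, set controls 3 and 4 against controls 1 and 2. Besides the library name prefix, the pairs differ in Ddx3y, at 105 and 105.7 CPM in controls 3 and 4 and 0.858 and 0.706 CPM in controls 1 and 2. Prefix and Ddx3y cannot be told apart in this comparison. Of 18093 genes tested there, 19 were called (0.105%) and 1257 had an unadjusted p under 0.05, and none of the 10 aldehyde dehydrogenases was called by edgeR or by limma-voom. With 2 libraries against 2, a difference that was not called there is not shown to be absent. At an unadjusted p under 0.05 stood Aldh1b1 (log2 difference 0.19), Aldh1a1 (-0.29) and Aldh3b3 (-0.40), 3 of the 10 genes by edgeR and 3 by limma-voom. The difference of Aldh3b2 was -0.71 with an unadjusted p of 0.0763. These differences within the controls were small beside the differences of Aldh1b1, Aldh3b2 and Aldh3b3 between KO and control, while Aldh1a1 differed by -0.29 within the controls and by 0.55 between KO and control.

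The remaining family comprised 11 further genes, of which 10 passed the filter and Aldh8a1 did not. The share called was 30%, near the 27.9% of all tested genes. Aldh1l1, the cytosolic 10-formyltetrahydrofolate dehydrogenase, rose to 29.3 ± 2.88 CPM in KO, against 2.30 ± 0.594 CPM in control libraries (log2 fold change 3.67, SE 0.16, edgeR adjusted p = 5.71e-08). Aldh1l2, its mitochondrial counterpart, fell to 20.2 ± 2.78 CPM in KO, against 46.9 ± 7.92 CPM in control libraries (-1.22, SE 0.13, edgeR adjusted p = 0.000101). Aldh1a3, a further retinal dehydrogenase, rose to 13.2 ± 1.39 CPM in KO, against 6.98 ± 0.555 CPM in control libraries (0.92, SE 0.11, edgeR adjusted p = 6.54e-05). The other 7 were not called, with log2 fold changes of 0.29 for Aldh3a1, 0.23 for Aldh1a7, 0.12 for Aldh6a1 and Aldh9a1, 0.06 for Aldh5a1, -0.07 for Aldh18a1 and -0.15 for Aldh16a1. Aldh1a7 shares 7.49% of its 50-base windows with Aldh1a1. The median log2 fold change was 0.12 over these 10 genes, 0.22 over the 10 described and 0.01 over all tested genes.

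Of 30 genes of retinoid transport, synthesis, breakdown and signalling, 25 were tested, 7 rose and 3 fell, with a median log2 fold change of 0.13. Over all tested genes, 14.8% were higher and 13.1% lower. Among the nuclear receptors, Rxrg fell to 11.9 ± 0.328 CPM in KO, against 28.4 ± 2.40 CPM in control libraries (-1.26, edgeR adjusted p = 6.44e-07), and Rxrb fell (-0.32, edgeR adjusted p = 0.00312). Rara (0.07), Rarb (-0.05), Rarg (0.16) and Rxra (0.08) were not called. Rbp7, a retinol-binding protein gene, fell (-1.13, edgeR adjusted p = 0.00106). The retinoid-responsive genes Rarres1 and Nrip1 rose (1.20 and 0.27, edgeR adjusted p = 0.00152 and 0.0142), and of the enzymes, the retinal reductase Dhrs3 (0.32), the retinol dehydrogenases Rdh10 (0.32) and Dhrs9 (1.06) and the carotenoid oxygenase Bco2 (0.88) rose. Cyp26b1, which clears retinoic acid, was not called (0.13). Only 6 genes of the list were called without KO 2, and 6 without KO 4.

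Of 26 other aldehyde- and alcohol-handling enzymes, 23 were tested, 5 rose and 6 fell, with a median log2 fold change of 0.02. The shares over all tested genes were 14.8% higher and 13.1% lower. The aldo-keto reductase Akr1c13 rose to 13.6 ± 1.34 CPM in KO, against 1.73 ± 0.262 CPM in control libraries (2.98, edgeR adjusted p = 6.39e-08). Its paralog Akr1c12 also rose (3.32, edgeR adjusted p = 0.000304) on 119 counts in KO and 12 in control libraries. With 2, 3, 5 and 2 counts in the control libraries, Akr1c12 passed the filter only through its KO counts. Its fold change is therefore uncertain, and reads of the pair may be divided between them. Aldehyde oxidase Aox1 rose to 54.5 ± 7.04 CPM in KO, against 30.2 ± 5.32 CPM in control libraries (0.85, edgeR adjusted p = 0.00086). Maob, a mitochondrial monoamine oxidase that produces aldehydes, fell to 56.6 ± 6.18 CPM in KO, against 83.7 ± 7.001 CPM in control libraries (-0.56, edgeR adjusted p = 0.000449). Of the glutathione transferases, Gsta4, which conjugates 4-hydroxynonenal, rose (0.36, edgeR adjusted p = 0.00103), and Gstm1 fell (-0.41, edgeR adjusted p = 0.000339).

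The routes of Aldh4a1 and Aldh7a1 were covered by 17 genes of proline, lysine and choline breakdown. Of these, 12 were tested, 4 rose and 2 fell, with a median log2 fold change of -0.07. Beside them, 14.8% of all tested genes were higher and 13.1% lower. Pipox, the peroxisomal oxidase of pipecolate and sarcosine, rose to 8.82 ± 0.880 CPM in KO, against 0.729 ± 0.0971 CPM in control libraries (3.59, edgeR adjusted p = 4.32e-08). Sardh, sarcosine dehydrogenase, rose to 46.9 ± 1.696 CPM in KO, against 21.5 ± 1.43 CPM in control libraries (1.13, edgeR adjusted p = 4.00e-07). Aass, the first enzyme of the saccharopine route of lysine breakdown, rose to 5.85 ± 1.48 CPM in KO, against 1.61 ± 0.0416 CPM in control libraries (1.86, edgeR adjusted p = 4.03e-05). Chdh, which makes betaine aldehyde from choline, rose (1.07, edgeR adjusted p = 0.0173) at low levels, a call lost without KO 2 (1.00). The mitochondrial aspartate aminotransferase Got2 fell (-0.33, edgeR adjusted p = 0.00688). Prodh, which starts proline breakdown, was not called (0.24).

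All 16 genes of fatty aldehyde and ether lipid metabolism, the route of Aldh3a2, were tested. Of these, 3 rose and 2 fell, with a median log2 fold change of 0.05. The share called, 31.25%, was near the 27.9% of all tested genes. Phyh, the peroxisomal hydroxylase of phytanic acid, fell to 161 ± 9.12 CPM in KO, against 276 ± 17.2 CPM in control libraries (-0.78, edgeR adjusted p = 5.69e-06). Gnpat, the first enzyme of ether lipid synthesis, fell (-0.27, edgeR adjusted p = 0.00725), while Acsl5 (0.34, edgeR adjusted p = 0.00394) and the sphingosine kinase Sphk2 (0.30, edgeR adjusted p = 0.0159) rose. Far1, the fatty acyl reductase, rose by 0.19 (edgeR adjusted p = 0.0491), which missed the threshold when KO 1, KO 2, KO 3, KO 4, control 2, control 3 or control 4 was left out, with values of 0.15 to 0.22.

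**Figure D4:**
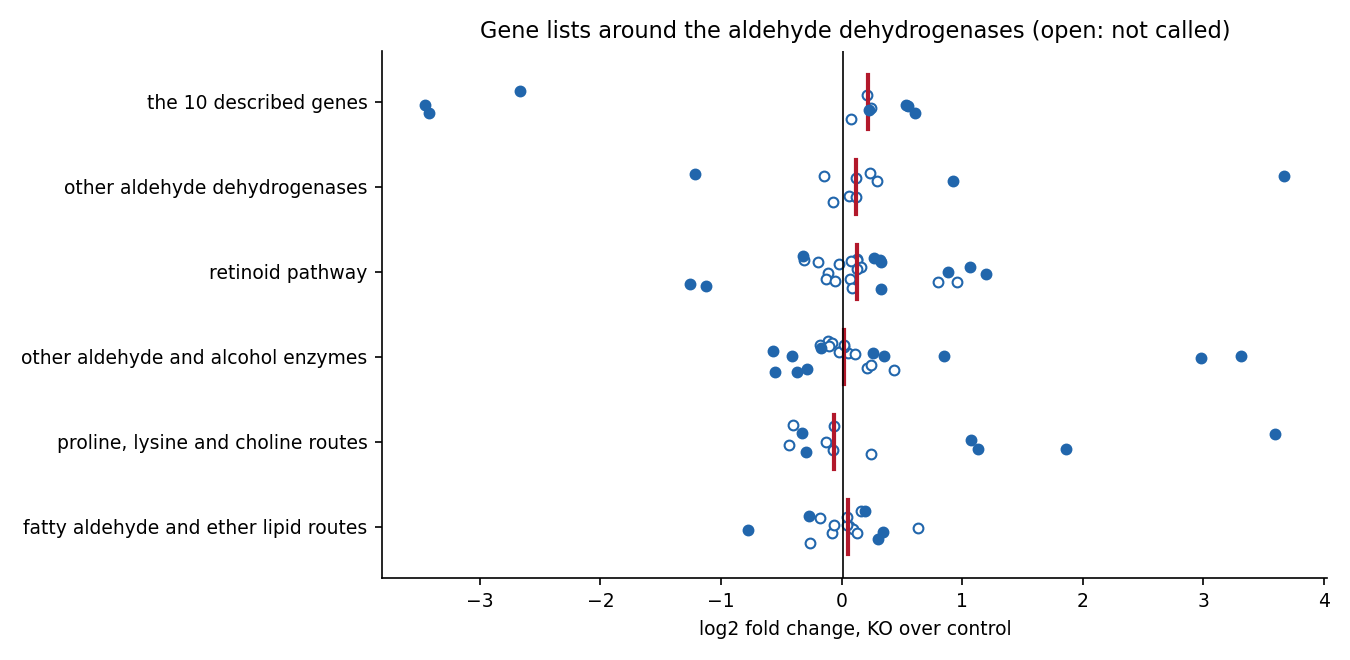
Log2 fold change, KO over control, of each tested gene of 6 lists, where filled points were called at an adjusted p under 0.05, open points were not, red bars mark the list medians and the black line the median of all tested genes (0.01). List medians lie between -0.07 and 0.22, and single genes such as Pipox (3.59) and Aldh3b3 (-3.45) lie far from them.

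The other genes around the Aldh3b cluster were set beside it. Within 100 kb of the start of Aldh3b3, 10 tested genes outside the family had their own start, of which 6 fell, 1 rose and 3 were not called. Of all tested genes, 13.1% were lower and 14.8% higher. Acy3, an aminoacylase gene 27.9 kb away, fell to 25.8 ± 1.43 CPM in KO, against 46.0 ± 4.90 CPM in control libraries (-0.83, edgeR adjusted p = 2.00e-05). Doc2g, a gene of the double C2 family 44.7 kb away, fell to 58.6 ± 8.54 CPM in KO, against 240 ± 30.7 CPM in control libraries (-2.04, edgeR adjusted p = 8.55e-07). Nudt8 (-1.53) and Gm49405 (-1.75), whose starts lie 41.9 and 42.0 kb away, fell too, and reads of these closely placed genes may be shared. Ndufs8, on the side of Aldh3b1, fell by 0.52 on the log2 scale, whereas Unc93b1 (0.16), Tcirg1 (0.19) and Ndufv1 (-0.09) were not called. Farther away, Gstp1 fell (-0.17) and its paralog Gstp2 rose (0.88), and reads of this pair may be divided between them.

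**Figure D5:**
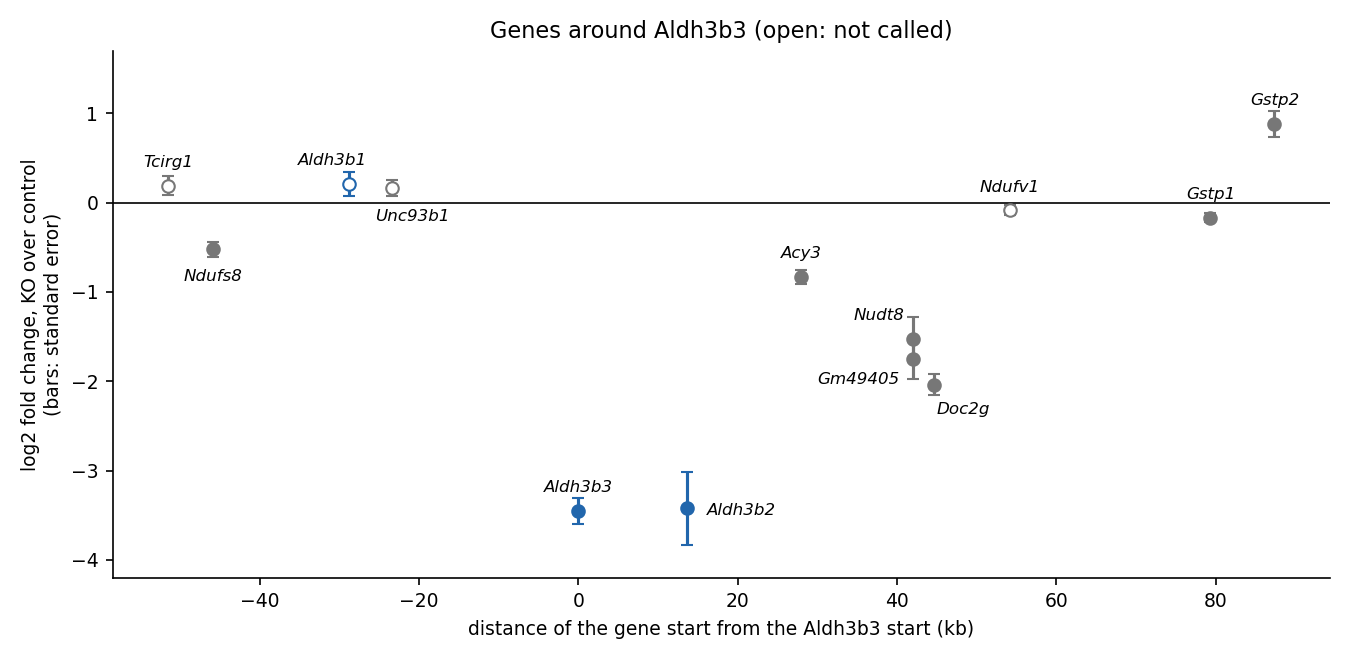
Log2 fold change, KO over control, with its standard error, of the tested genes around Aldh3b3 against the distance of their start from that of Aldh3b3 in kilobases, where Aldh3b genes are blue and genes not called are open. Aldh3b3 lies at -3.45 and Aldh3b2 at -3.42, the genes between 27.9 and 44.7 kb lie between -2.04 and -0.83, and Aldh3b1 at -28.8 kb lies at 0.21.

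Around all 10 genes, 50 further genes started within 100 kb and 23 of them were tested, of which 2 rose and 9 fell. Of all tested genes, 14.8% were higher and 13.1% lower. The stretch around Aldh3b3 alone held 1 of the 2 that rose and 6 of the 9 that fell. Near Aldh1b1, Igfbpl1 at 27.9 kb fell to 2.29 ± 0.563 CPM in KO, against 9.83 ± 1.72 CPM in control libraries (-2.11, edgeR adjusted p = 9.58e-06), and the noncoding Gm12409 fell (-1.22, edgeR adjusted p = 0.00999). Near Aldh2, which was higher, the acyl-CoA dehydrogenase gene Acad12 fell (-0.58, edgeR adjusted p = 0.000871) and 4 others were not called. Near Aldh3a2, Usp22, a deubiquitinase of the SAGA complex, rose (0.21, edgeR adjusted p = 0.00696).

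The gene most like each member over the 8 libraries was the one with the highest Pearson correlation of log2 CPM among 13227 genes, given as a description, since the difference between the groups enters every value. It was Atg10 for Aldh1b1 (r = 0.999), Coq10a for Aldh3b3 (0.995), Ankrd50 for Aldh3b2 (0.981) and Sirpa for Aldh3b1 (0.969). It was Pole2 for Aldh2 (0.996), Evc for Aldh7a1 (0.993), Cys1 for Aldh1a1 (0.991) and Shisa5 for Aldh4a1 (0.989). Aldh1a2 was most like Pym1 (0.9745) and Aldh3a2 most like Mindy2 (0.959). Each was 1 of many similar genes. Those with r over 0.9 numbered 1014 for Aldh1b1, 902 for Aldh3b3, 861 for Aldh2, 283 for Aldh1a1 and 41 for Aldh3a2. Atg10, Coq10a and Ankrd50 were lower in KO atria, as were the genes they resembled, with log2 fold changes of -1.03, -0.64 and -0.43.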

How the data were processed

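The deposited table holds raw read counts per gene, whole numbers with a column for each of 8 libraries, made by the authors. The submitters' processing notes name STAR, DESeq2 and the build mm10, and the labels' protocols name oligo-dT selection. Tool versions, how reads were counted, whether strand was used and how reads matching several genes were treated are not given in the sources used here, so reads of overlapping or antisense genes cannot be told apart. Columns were matched to libraries by vector and number. Coordinates and exon lengths came from GENCODE M21 (GRCm38, the assembly of mm10), matched by gene identifier, and promoter windows from RefSeq (GRCm38.p6).

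Counts were analysed in R 4.3.3 with edgeR 4.0.16: filterByExpr (minimum count 10, minimum total 15), TMM scaling, a robust quasi-likelihood fit over all 8 libraries with 6 residual degrees of freedom, and Benjamini-Hochberg adjustment over 18033 genes. Calls needed an adjusted p below 0.05. The procedure was checked on simulated counts. Alternatives used limma 3.58.1, DESeq2 1.42.0, other scalings and filters, the replicate number as a block, single libraries left out, each pair of controls alone, and Ddx3y as a covariate. Correlations used log2 CPM with a prior count of 2 over genes averaging 1 CPM or more.

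The members and the 5 gene lists were chosen with earlier results of these data known. The text names all members, the other aldehyde dehydrogenases, up to 6 called genes of each list with the smallest p, called neighbours and the gene most like each member. Some of these genes are counted in their lists but not reported here by name. Other genes were named after their values were seen. Intervals and floors cover counting error or the spread between libraries only. No pair of libraries was identical.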

Additional observations from a re-analysis of the deposited data

Results flagged for a closer look

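A single library stood apart from the other 3 of its group in 7 of 84 groups examined, where chance gives about 1 in 20 groups, or 4.2. For the 10 genes themselves this touched Aldh4a1, at 43.8 CPM in control 3 and 35.1 to 36.2 CPM in the other controls. Among the other aldehyde dehydrogenases, Aldh3a1 was at 4.66 CPM in KO 4 and 5.81 to 5.99 CPM in the other KO libraries, and Aldh18a1 at 21.5 CPM in control 2 and 29.0 to 30.4 CPM in the other controls. Of the retinoid genes, Rarres1 was at 1.02 CPM in control 3 (1.79 to 1.87 CPM in the other controls) and Nrip1 at 48.8 CPM in KO 1 (58.7 to 60.5 CPM in the others). Aox1 was at 44.0 CPM in KO 1 and 57.1 to 59.0 CPM in KO 2 to KO 4. Got2 was at 536 CPM in KO 1 and 450.0 to 459 CPM in KO 2 to KO 4. KO 1 thus appears 3 times among the 7, and it also held the highest summed cardiomyocyte markers of its group, 67260 CPM against 53380 to 56170 CPM in KO 2 to KO 4. The part of that difference in these values was not tested.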

How the results depend on the processing

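The 10 genes were chosen with this contrast known, so their values here describe only what each setting does to them. All 10 kept their direction in each of 17 alternatives, with 6 or 7 of them called, while 3490 to 6108 of all tested genes were called. Leaving out single libraries gave 6 to 7 of the 10 and 3915 to 5301 of all genes. Aldh1b1, Aldh2, Aldh1a1, Aldh3b2, Aldh3b3 and Aldh7a1 had log2 fold changes of -2.79 to -2.58, 0.56 to 0.63, 0.39 to 0.67, -3.75 to -3.05, -3.65 to -3.27 and 0.46 to 0.59. Aldh4a1 was called in 9, and lost its call with controls 3 and 4 alone (0.14) and with Ddx3y as a covariate (0.21). The replicate numbers did not pair the libraries: deviations of same-numbered libraries correlated by -0.02, 0.30, -0.06 and 0.10. With the number as a block, 4757 genes were called, among them 7 of the 10.

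Leaving out single libraries, the retinoid list gave 6 to 9 called genes against 10 with all libraries, and the fatty aldehyde list 4 to 5 against 5. With controls 3 and 4 alone the fatty aldehyde list gave 2. Aldh1a7, Aldh5a1 and Aldh18a1, which were not called, changed sign. Aldh1a7 was at -0.12 with limma-voom and between -0.12 (without KO 2) and 0.53 with single libraries left out, Aldh5a1 at -0.0694 with controls 3 and 4 alone and between -0.0013 (without control 2) and 0.12 with single libraries left out, and Aldh18a1 at 0.0126 with controls 1 and 2 alone. Of the named list genes, Far1 lost its call in 15 of 17 alternatives. The causes were not tested. Between the pairs of controls, 19 genes were called with the filter on low counts and 352 without it, none of them among the 10. Per transcript length, the longest transcript in place of all exons moved control levels to 101 CPM per kilobase for Aldh2, 17.2 for Aldh1a1, 14.5 for Aldh3a2, 9.10 for Aldh4a1 and 11.98 for Aldh7a1. Depth limits Aldh3b2 most, at 9 to 28 counts in KO libraries.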
